A study of Mus musculus with 22 samples.

Results

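Zinc finger genes whose symbols start with Zfp and a number were followed in mouse quadriceps muscle, in RNA and in ribosome footprints, with and without leucine. A gene was a member if its symbol in the authors' count table matched that form, and Zfp238, which also matches, was left out by the rule. There were 62 such genes among the 6054 in the table, and the table held 63 with Zfp238. RefSeq lists 397 protein-coding mouse genes with symbols of this form, and no value in the table lies below 129 counts, so the 62 are the members that were abundant in both assays. Zfp genes with enough RNA but few footprints, or the reverse, are thus absent. The footprint to RNA ratios given below may therefore miss the lowest and highest values of the family. All mice were C57Bl/6, an inbred laboratory strain, and no age is stated in the labels. They had been fasted overnight, and gavage with leucine, or with vehicle alone, preceded tissue collection by 30 minutes. RNA sequencing gave 5 vehicle and 6 leucine libraries, and ribosome profiling, which sequences the short stretches of mRNA covered by ribosomes, gave 5 vehicle and 6 leucine libraries. Whether each library is a separate animal is not stated in the labels. The p-values therefore reflect library-to-library spread, which may be technical.

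Most Zfp proteins carry C2H2 zinc fingers, small folds in which cysteines and histidines hold a zinc ion and a helix reads DNA bases. Many of them also carry a KRAB domain, which recruits the co-repressor TRIM28 and histone methylation to silence transposable elements and imprinted genes. The symbol also covers proteins with other fingers, such as the CCCH proteins that bind AU-rich elements and direct mRNA decay, and proteins that act on ribosome assembly or splicing.

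The repeated unit of a C2H2 array is shown for 5 members with ratios, described below, from -1.82 (Zfp568) to 0.29 (Zfp768), since its similarity between genes bears on how reads can be assigned. Each is the first unit in the coding sequence that is followed by the linker joining neighbouring fingers. It is printed as 78 bases from the GENCODE M21 transcript on GRCm38, and the capitals mark the 15 bases that encode the linker.
Zfp568: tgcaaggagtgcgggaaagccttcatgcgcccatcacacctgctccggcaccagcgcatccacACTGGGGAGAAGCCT
Zfp26: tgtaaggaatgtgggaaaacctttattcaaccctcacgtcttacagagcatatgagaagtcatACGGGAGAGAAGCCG
Zfp51: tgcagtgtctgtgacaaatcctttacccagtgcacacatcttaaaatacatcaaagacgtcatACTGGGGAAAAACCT
Zfp260: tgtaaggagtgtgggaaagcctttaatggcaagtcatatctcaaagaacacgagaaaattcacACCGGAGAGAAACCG
Zfp768: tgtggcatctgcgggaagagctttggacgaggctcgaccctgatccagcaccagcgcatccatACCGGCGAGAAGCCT
Over the 10 pairs, these units were identical at 51.28% to 71.79% of positions, with a median of 61.53%. Such a unit was found in the transcripts of 35 members. In all, 50 of the 62 members shared at most 5% of their coding windows of 30 bases, about a footprint's length, with any other gene. The other 12 shared more, beside 19.34% of all genes, among them Zfp617 with 75.7%, Zfp825 with 64.1%, Zfp330 with 53.7% and the small gene Zfp706 with 99%. The sources used here do not state how multi-mapping reads were counted, so the values of those 12 are uncertain.

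The RNA libraries held 15016267 to 30944085 counts each and the footprint libraries 21697096 to 48996109. No member had fewer than 129 counts in any library. The column names fall into 2 sets by a prefix of unstated meaning, named A and B here, with 3 vehicle and 3 leucine libraries in A and 2 vehicle and 3 leucine libraries in B in each assay. With treatment in the model, 2 members were higher and 6 lower in set B in RNA, and 2 were higher and 6 lower in footprints, while the set effect was called for 18.8% of all genes in RNA and for 23.8% in footprints (edgeR quasi-likelihood test, Benjamini-Hochberg). All 10 listed skeletal muscle markers were measured, with a summed level of 294200 to 436400 CPM in vehicle RNA, where CPM are library-scaled counts, here with TMM-adjusted library sizes. Of other cell types, 5 of 7 endothelial, 7 of 7 fibroblast, 4 of 8 macrophage and leukocyte, 3 of 4 smooth muscle and 1 of 5 adipocyte markers were measured. Fibroblast markers summed to 1960 to 3617 CPM in vehicle RNA and to 9069 to 17130 CPM in vehicle footprints. In a bulk sample, fewer cells of a type and less RNA per cell cannot be told apart.

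Zfp mRNAs were a small share of each library, and a smaller one of footprints than of RNA. Together the 62 genes made up 0.282% ± 0.0276 of vehicle RNA counts (SD, n = 5) and 0.109% ± 0.0215 of vehicle footprint counts (SD, n = 5). Without Zfp592, whose footprints varied most between libraries, the footprint share was 0.0956% ± 0.00509 (SD, n = 5). Zfp106 alone held 22055 of the 48497 member counts in vehicle RNA library A1 and 18683 of 67815 in B2. In vehicle footprint libraries A1 and B2 it held 3247 of 45571 and 2282 of 25280 member counts. The lower share in footprints thus rests in part on this 1 gene. In leucine muscle the shares were 0.267% ± 0.0288 in RNA and 0.0897% ± 0.00547 in footprints (SD, n = 6 each).

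The first question was how many footprints these mRNAs carried for their RNA in the muscle of vehicle mice. The ratio of footprints to RNA is given on the log2 scale after joint TMM scaling, so that 0 is close to the typical gene of the table. Of the 62 members, 50 had a lower and 5 a higher ratio past the threshold of adjusted p 0.05 (edgeR quasi-likelihood test, Benjamini-Hochberg over 6054 genes). Across all genes, 38% were lower and 37.2% were higher in the same test, 75.2% in all. The median of the members was -0.71, or 0.612-fold, beside -0.001 for all genes, and 55 of 62 were negative. In 23 members the ratio was below -1, under 0.5-fold, where 15.82% of all genes lay that low. The lowest 25% of all genes held 32 members and the highest 25% held 3.

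**Figure D1:**
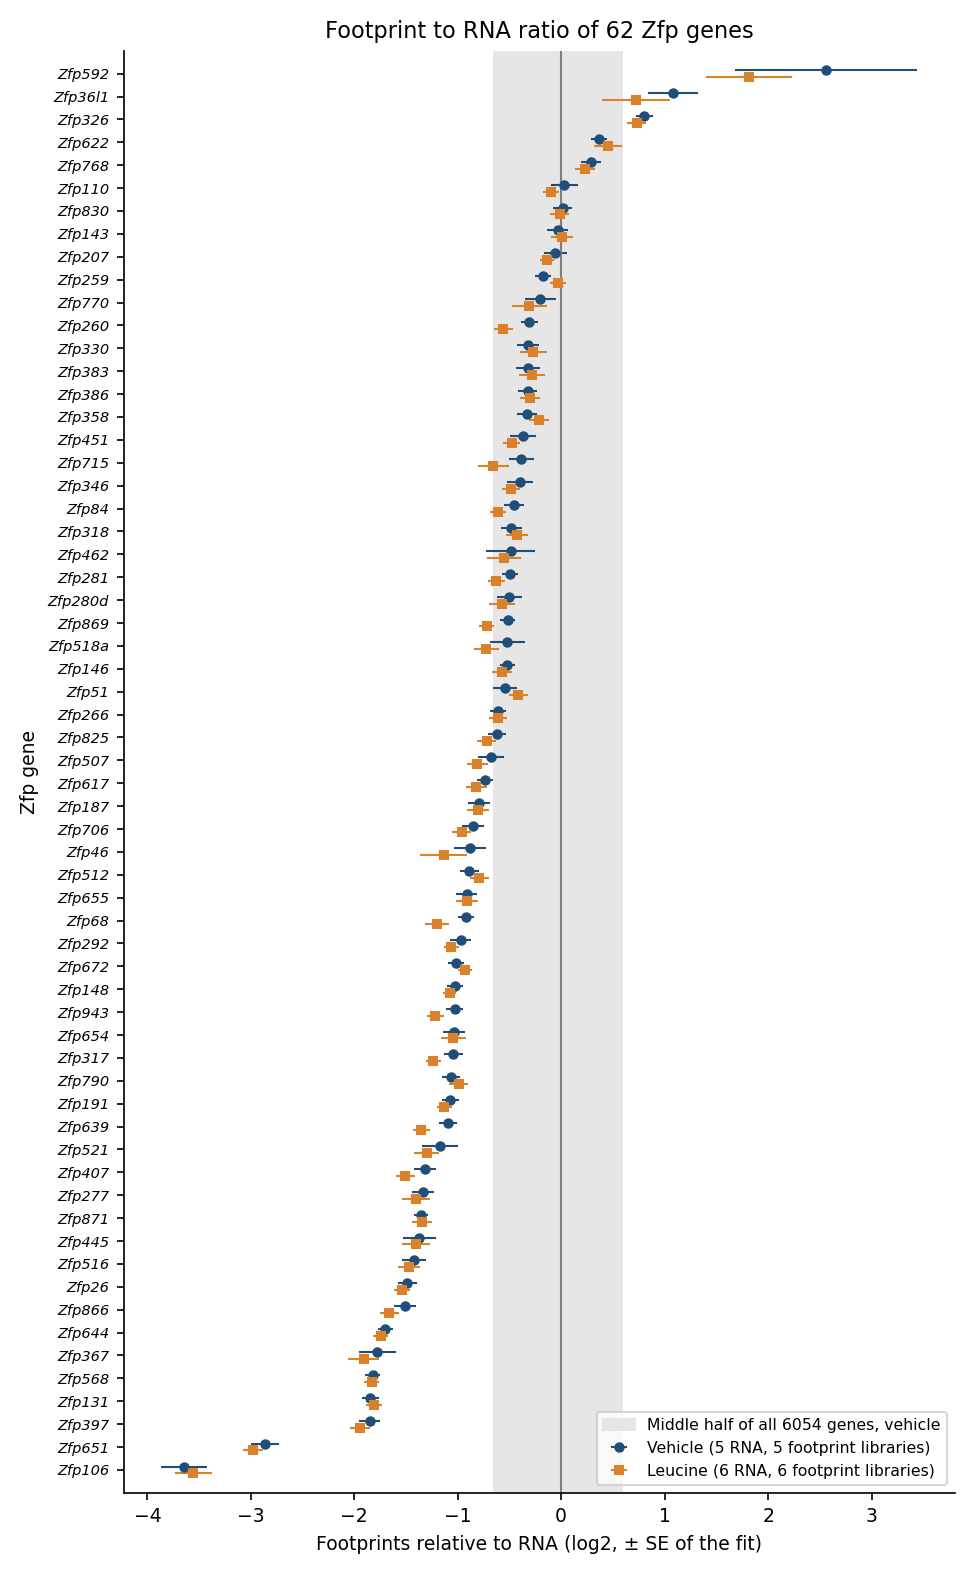
Log2 ratio of footprints to RNA (horizontal axis) for each of the 62 Zfp genes, with the SE of the fit as bars, in vehicle (blue circles) and leucine (orange squares) muscle. The grey band holds the middle 50% of all 6054 genes in vehicle muscle, and most members lie in its lower part or to its left, down to Zfp106 at -3.65.

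**Figure D2:**
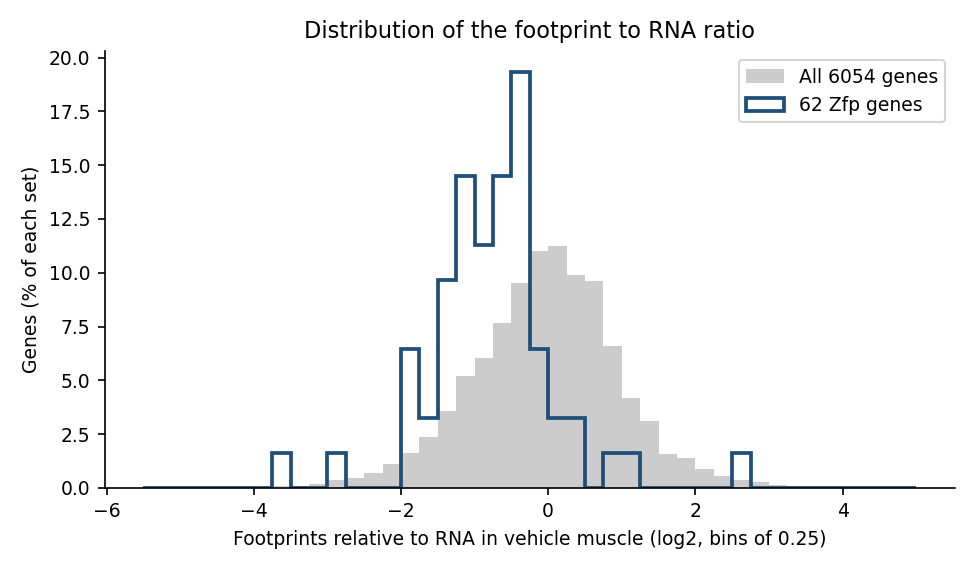
Distribution of the log2 footprint to RNA ratio in vehicle muscle, as a percentage of the 62 Zfp genes (blue outline) and of all 6054 genes (grey), in bins of 0.25. The members are shifted to the left, with a median of -0.71 beside -0.001.

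The shift was also seen against genes with similar RNA levels. Between 15.67 and 29.85 CPM of vehicle RNA, the range of the middle 50% of members, 25 of 30 members (83.33%) had a lower ratio and their median was -0.77. Among the 1775 other genes in that range, 34.48% had a lower ratio and the median was 0.04.

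Zfp106 encodes an RNA-binding zinc finger protein whose loss in mice causes degeneration of motor neurons and muscle, and it had the lowest ratio. Its RNA was 1380, 1069, 1341, 811 and 592 CPM in vehicle libraries A1, A2, A3, B1 and B2. The footprints of the same gene were 72.8, 88.8, 85.1, 83.3 and 90.2 CPM. Every footprint value lay far below every RNA value, although the RNA values of set A were higher than those of set B. The ratio was -3.65 ± 0.22 (SE; adjusted p = 1.72e-08, edgeR quasi-likelihood test), or 0.0799-fold. Per kilobase of transcript, Zfp106 had the highest RNA level of all members at 114.1 CPM per kb, followed by Zfp639 at 19.3. Per kilobase of coding sequence, its footprints at 14.8 CPM per kb ranked 11.

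Zfp651 had the second lowest ratio. Its RNA was 87.4, 92, 117, 99.7 and 85.3 CPM in the vehicle libraries, in the same order. Its footprints were 12.2, 15.7, 16.2, 11.9 and 11.3 CPM. The 2 assays did not overlap, and the ratio was -2.86 ± 0.13 (SE; adjusted p = 2.11e-09, edgeR). The next members formed a group near -1.8, with Zfp397 at -1.85 ± 0.10, Zfp131 at -1.85 ± 0.08 and Zfp568 at -1.82 ± 0.07, whose errors overlap.

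Zfp568 is a KRAB zinc finger protein that represses a placental transcript of Igf2 in the mouse embryo. Its RNA was 28.7, 31.2, 28.4, 27.6 and 28.2 CPM in the vehicle libraries and its footprints were 8.4, 8.7, 8.22, 7.79 and 8.22 CPM. These narrow ranges are wide apart, and the adjusted p of 8.43e-10 was the smallest of any member (edgeR). Among the other chromatin-linked members, Zfp644, a partner of the histone methyltransferases G9a and GLP, had a ratio of -1.70 ± 0.07 and Zfp445, which maintains genomic imprints, one of -1.37 ± 0.16. Zfp462, which has 34 C2H2 motifs, the most of any member, had -0.49 ± 0.24 (adjusted p = 0.0791, edgeR) and did not pass. Without vehicle RNA library B2, in which its RNA was lowest at 9.86 CPM, the ratio of Zfp462 was -0.66 (adjusted p = 0.00318, edgeR).

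Both members linked to fat cell and mesenchymal fate were low. Zfp516, which promotes brown fat genes, had a ratio of -1.42 ± 0.12, and Zfp521, which restrains adipocyte formation, one of -1.17 ± 0.17. Of the promoter-binding factors, Zfp148 had -1.02 ± 0.08 and Zfp281 -0.50 ± 0.08, both called lower, while Zfp143, which binds promoters and chromatin loop anchors, had -0.03 ± 0.10 and was not called. When both assays were put on a per-length scale, Zfp143 had -0.50 (adjusted p = 0.000464, edgeR) and Zfp148, with a coding share of 24.3%, had 0.09.

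Members that act on RNA and ribosomes ran from the lowest ratio to some of the highest. Zfp326, a component of a complex that couples splicing to RNA polymerase II, was higher, with RNA at 8.7, 10.4, 8.46, 8.47 and 9.35 CPM and footprints at 15.5, 15.2, 16.4, 17.4 and 15.8 CPM. All its footprint values lay above all its RNA values, and the ratio was 0.80 ± 0.08 (SE; adjusted p = 1.88e-06, edgeR). Zfp622, a factor in the maturation of the large ribosomal subunit, was also higher, at 0.37 ± 0.08 (adjusted p = 0.000826, edgeR), and within set B alone its ratio was 0.27 (adjusted p = 0.0613, edgeR). The nucleolar protein gene Zfp330 (-0.32 ± 0.11) and Zfp346, which binds double-stranded RNA (-0.40 ± 0.13), were called lower. Within set A neither passed, with Zfp330 at -0.11 (adjusted p = 0.281) and Zfp346 at -0.31 (adjusted p = 0.0732, edgeR). On the scale without shared windows Zfp330 turned to 0.11, and per length Zfp346 turned to 0.59. Zfp259, listed as Zpr1 in newer annotation and known to bind the elongation factor eEF1A, had -0.18 ± 0.08 (adjusted p = 0.058, edgeR). It was called lower in DESeq2 (adjusted p = 0.0322), in limma-voom (0.0493) and with the set as a covariate in edgeR (0.0341), among other settings, while per length its ratio was 0.0089.

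Zfp36l1, the 1 measured CCCH member of 4 listed, encodes a protein that speeds the decay of mRNAs with AU-rich elements. Its RNA was 12.6, 12.7, 9.01, 6.26 and 7.04 CPM in vehicle libraries and its footprints were 30.3, 20.1, 14.4, 19.3 and 15.9 CPM. All footprint values lay above all RNA values, with a wide spread in each assay, and the ratio was 1.08 ± 0.25 (SE; adjusted p = 0.00165, edgeR). In leucine muscle its ratio was 0.73 ± 0.33 (adjusted p = 0.0581, edgeR), and it was 1.14 (adjusted p = 0.000358, edgeR) without leucine RNA library A3, whose RNA value of 30.0 CPM stood above the other 5.

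Zfp592, found with chromatin reader complexes, had the highest ratio, and that value rests in part on single libraries. Its RNA was 16.3, 16.2, 17.8, 35.9 and 22.3 CPM in the vehicle libraries. Its footprints were 19.5, 483.8, 28.7, 56.3 and 63.3 CPM, so library A2 held more than all the others together. The ratio was 2.56 ± 0.88 (SE; adjusted p = 0.0228, edgeR) with that library and 0.91 (adjusted p = 0.0459, edgeR) without it. The call was lost without vehicle RNA library A1 (2.47, adjusted p = 0.052) or A3 (2.49, adjusted p = 0.0512) and with limma-voom (1.56, adjusted p = 0.0623). It was also lost with the set as a covariate (2.44, adjusted p = 0.051) and within set A (3.39, adjusted p = 0.0851, edgeR). In leucine footprints its values ran from 19.9 through a median of 46.7 to 155.8 CPM, with a ratio to RNA of 1.82 ± 0.42 and of 1.27 without library A3. Zfp768 was the other member called higher, at 0.29 ± 0.10. This call was lost within set B (0.06, adjusted p = 0.696) and with total counts (0.17, adjusted p = 0.182), and per unshared window the ratio was called lower (-0.24, adjusted p = 0.0385, edgeR).

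Of the 7 members whose ratio was not called, Zfp143, Zfp830 (0.01 ± 0.09), Zfp207 (-0.06 ± 0.11) and Zfp110 (0.03 ± 0.13) lay nearest to 0, and Zfp259, Zfp462 and Zfp770 (-0.20 ± 0.15) were negative. Zfp207, which encodes a kinetochore and spindle protein, had vehicle RNA at 28.3, 30.6, 25.8, 30.2 and 36.1 CPM and footprints at 32.1, 34.4, 28.1, 27.9 and 24.95 CPM. On average footprints lay above RNA in set A, with ranges that overlapped, and below it in set B, where the ratio was called lower (-0.35, adjusted p = 0.0473, edgeR). A p that misses the threshold does not show that the assays were equal for these genes.

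**Figure D3:**
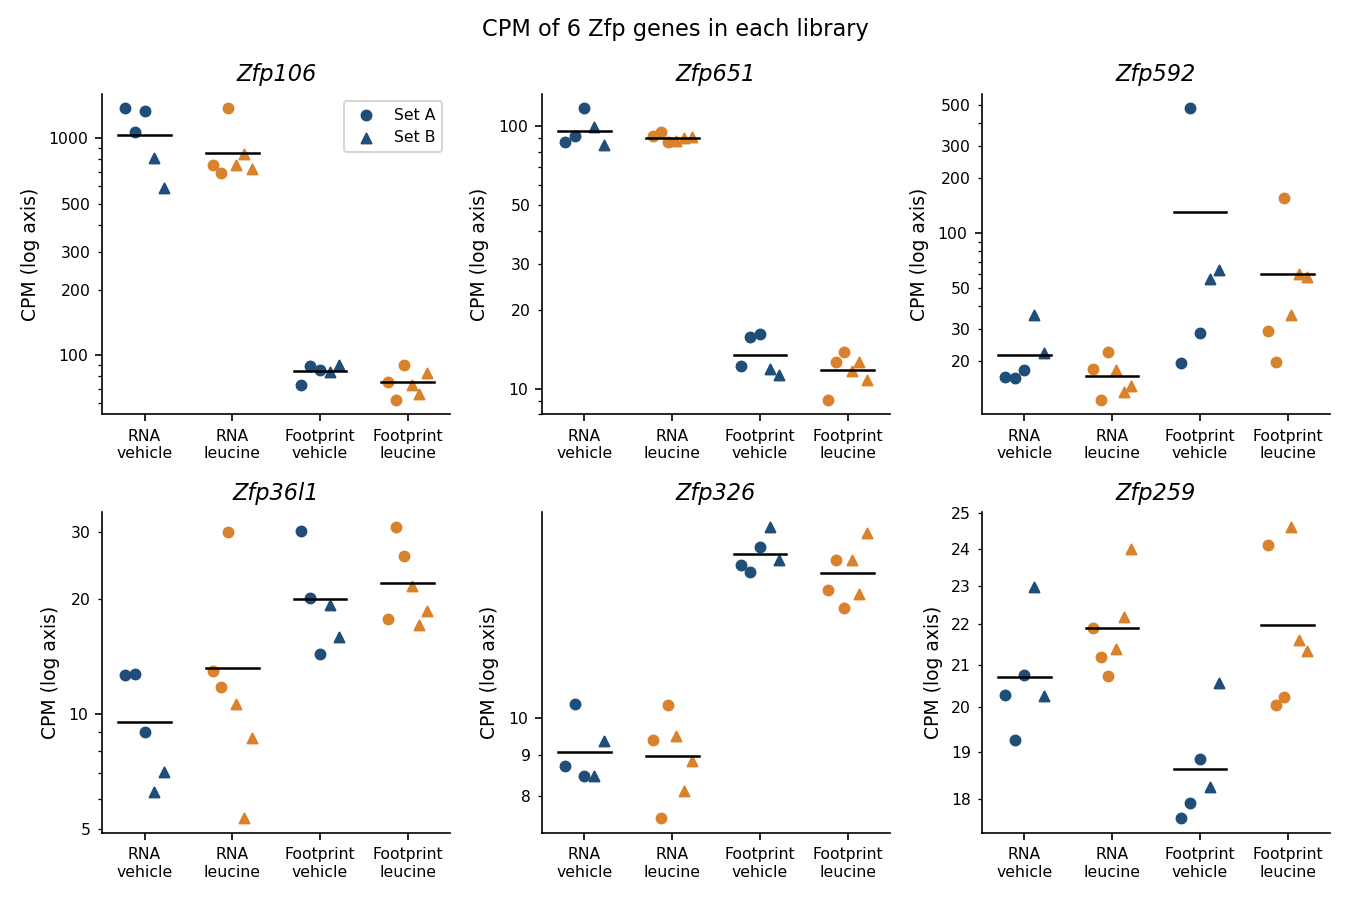
CPM on a log axis for 6 Zfp genes in each library, grouped by assay and treatment, with vehicle in blue and leucine in orange, set A as circles, set B as triangles and group means as lines. Zfp106 and Zfp651 have footprints far below RNA, Zfp326 has footprints above RNA, and Zfp592 has 1 vehicle footprint library at 483.8 CPM.

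The same ratios were found in the muscle of leucine mice, which uses other libraries of both assays. There 48 members were lower and 4 higher past the threshold, beside 39.4% and 37.7% of all genes, 77.2% in all (edgeR quasi-likelihood test), and the median was -0.80, or 0.575-fold. In both groups, 47 members were lower and 4 were higher. Across the 62 members the ratios of the 2 groups had a Pearson r of 0.988 and a Spearman rho of 0.98. Genes are not independent replicates, so this is a description. The ratios of each group were scaled on the libraries of that group alone. Zfp106 had -3.56 ± 0.18, Zfp651 -2.98 ± 0.10 and Zfp568 -1.83 ± 0.08 in leucine muscle. Without leucine RNA library A3, 4 members were higher and 50 lower, beside 39.8% and 40.4% of all genes, and the members' median was -0.79.

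Footprints come mainly from coding sequence and RNA reads from the whole transcript, so transcript structure can move the ratio. All 62 members were matched to a GENCODE transcript by accession, and for 52 its length was within 10% of the transcript length in the authors' deposited tables. The median coding share was 51.1% for members and 52.6% for all genes, and the median transcript length was 4006 bases for members and 3292 for all genes. With footprints set per coding length and RNA per transcript length, 43 members were lower and 10 higher in vehicle muscle, with a median of -0.52 beside 0.10 for all genes, of which 35.4% were lower and 42.4% higher. With the lengths counted only in windows shared with no other gene, 42 were lower and 10 higher, with a median of -0.56, beside 35.7% and 43% of all genes. With the authors' transcript lengths in place of GENCODE's, 44 were lower and 12 higher, with a median of -0.47, beside 34.1% and 42.3% of all genes. The sign of the ratio changed for 14, 15 and 13 members under these settings, and 6, 6 and 7 of the members called lower were then called higher. Zfp830, with 1591 bases in GENCODE and 3278 in the authors' tables, had -0.37 by the first length and 0.73 by the second. Among the 50 members that share at most 5% of coding windows, 39 were lower without a length setting, beside 38% of all genes. The median of their unadjusted ratio was -0.74. Which transcript isoforms this muscle uses was not tested.

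The array linker was counted in the translated transcripts as a description of finger type. The 25 members with 3 or more linkers had a median ratio of -0.74, and 23 were lower and 1 higher. Whether these members carry a KRAB domain was not tested. The 11 members with 1 or 2 linkers had a median of -1.07, with 10 lower and 0 higher. The 26 members with no linker had a median of -0.50 and the widest range, from -3.65 to 2.56, with 17 lower and 4 higher. Beside these counts, 38% of all genes were lower and 37.2% higher. Across members, the ratio had a Pearson r of -0.095 with the number of linkers and of -0.138 with the number of C2H2 motifs (n = 62 genes, Spearman rho -0.174 and -0.263). Against transcript length r was -0.265 and rho -0.367, where all 6018 genes with a transcript had an r of -0.188 and a rho of -0.216.

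**Figure D4:**
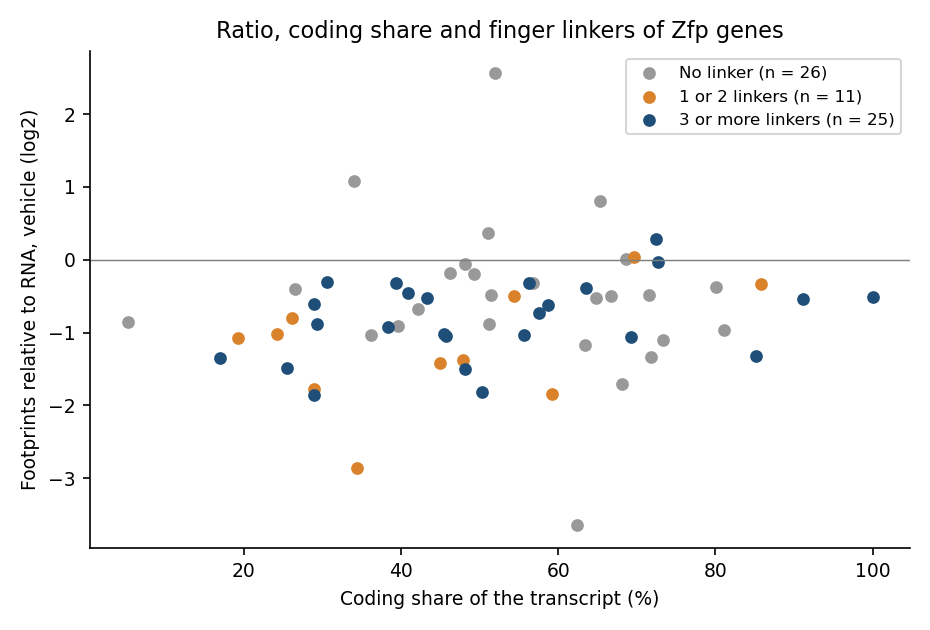
Log2 footprint to RNA ratio in vehicle muscle (vertical axis) against the coding share of the transcript in percent (horizontal axis) for the 62 Zfp genes, coloured by the number of array linkers. Members with 3 or more linkers lie between -1.85 and 0.29 at coding shares from under 20% to 100%, and the extremes at -3.65 and 2.56 have no linker. The point at 100% is Zfp869, whose GENCODE transcript of 1590 bases holds coding sequence only, while the authors' transcript length is 3287 bases.

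Other zinc finger genes and the co-repressors of KRAB proteins give points of reference. The 57 genes of the table with other zinc finger symbols had a median ratio of -0.23, with 26 lower and 10 higher. Of 21 listed genes of the KRAB co-repressor machinery, 14 were measured, with a median of 0.25, 7 higher and 3 lower. For both lists, the share of all genes in the same test was 38% lower and 37.2% higher. Trim28, the co-repressor that KRAB domains recruit, was higher at 0.79 ± 0.07, as were the methyltransferase Setdb1 at 0.25 ± 0.07 and its partner Atf7ip at 1.18 ± 0.14. The heterochromatin protein gene Cbx5 was lower at -1.86 ± 0.09, and its relative Cbx3 was higher at 0.40 ± 0.08. The difference between these lists and the Zfp members was not tested.

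The second question was whether leucine changed the footprints of these mRNAs. Of the 62 members, 0 passed in either direction, where 0.694% of all genes were higher and 0.0661% lower, 0.76% in all (edgeR quasi-likelihood test, Benjamini-Hochberg). At an unadjusted p under 0.05 there were 3 of the 62 members, beside 731 of all 6054 genes. The median change, leucine minus vehicle, was -0.02 beside -0.01 for all genes, and 25 of 62 were positive. In 0 members did all leucine libraries lie above or below all vehicle libraries, where 1.7% of all genes were higher and 0.793% lower in that way. The SE of a member's change had a median of 0.095, and 57 members lay within 0.2 of 0, beside 84.42% of all genes. DESeq2 called 1 member higher (Zfp259), beside 3.11% of all genes higher and 1.07% lower, and limma-voom called 0 members and 0 genes in all.

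Zfp259 had the smallest p. Its footprints were 17.6, 17.9, 18.8, 18.2 and 20.6 CPM in vehicle libraries A1, A2, A3, B1 and B2. In leucine libraries they ran from 20.1 through a median of 21.5 to 24.6 CPM. The groups overlap only through vehicle library B2, which lies above the lowest leucine libraries. The change was 0.25 ± 0.08 (SE; adjusted p = 0.188, edgeR quasi-likelihood test), and in DESeq2 it was 0.25 with an adjusted p of 0.0302. The RNA of Zfp259 changed by 0.08 ± 0.07 and its efficiency by 0.16 ± 0.10, neither past the threshold. In the authors' deposited table of footprints, Zfp259 has a log2 change of 0.264 with a p of 0.0405 and an FDR of 0.739.

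The other members with an unadjusted p under 0.05 were Zfp462 and Zfp358. Footprints of Zfp462 were 11.4, 16.6, 14.1, 14.6 and 14.8 CPM in vehicle and ran from 10.1 through a median of 11.9 to 13.2 CPM in leucine. Its change was -0.28 ± 0.11 (SE; adjusted p = 0.303, edgeR), and vehicle library A1 lay among the leucine values. Zfp358 had 0.18 ± 0.08 (adjusted p = 0.398, edgeR), with 7.22 to 9.17 CPM in vehicle and 8.67 to 9.85 CPM in leucine. The next smallest p values belonged to Zfp790 (0.14 ± 0.08), Zfp317 (-0.15 ± 0.08) and Zfp715 (-0.26 ± 0.15).

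Zfp592 had the largest footprint difference and the largest error. Its change was -1.13 ± 0.88 (SE; adjusted p = 0.64, edgeR), and without vehicle footprint library A2 it was 0.52 (adjusted p = 0.802). Zfp106, the most abundant Zfp mRNA, changed by -0.16 ± 0.10 in footprints and by -0.28 ± 0.24 in RNA. Members linked to RNA and ribosomes had Zfp622 at 0.11 ± 0.07, Zfp326 at -0.07 ± 0.07 and Zfp36l1 at 0.14 ± 0.20.

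The groups of members by role held 0 called genes in footprints. All 5 chromatin partners had negative changes with a median of -0.08, and both fat cell and mesenchymal members were negative, at -0.13 ± 0.12 for Zfp516 and -0.11 ± 0.12 for Zfp521. Not all of these signs held in every subset, since Zfp592 was positive without vehicle footprint library A2, Zfp644 within set A, and Zfp568 and Zfp521 within set B. The 6 RNA and ribosome members had a median of -0.02 with 2 positive, and the 3 promoter-binding factors had a median of -0.06. The 43 members in no role list had a median of -0.007 with 19 positive. Among the 57 other zinc finger symbols, 16 were positive with a median of -0.07, and among the 14 co-repressor genes 9 were positive with a median of 0.03, with 0 called in both lists. In the same comparison the marker lists had medians of -0.25 (7 fibroblast genes), -0.27 (4 macrophage and leukocyte genes), -0.07 (5 endothelial genes), 0.21 (10 skeletal muscle genes), 0.24 (3 smooth muscle genes) and 0.39 (1 adipocyte gene). Their part in the values of single members was not tested.

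**Figure D5:**
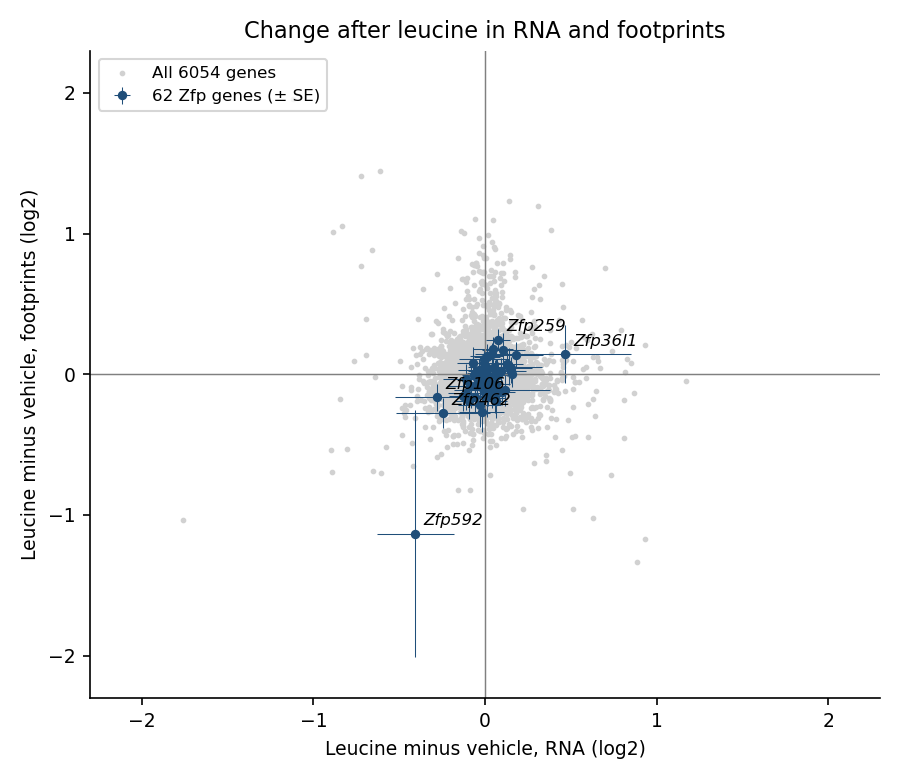
Log2 change after leucine in RNA (horizontal axis) and in footprints (vertical axis) for the 62 Zfp genes (blue, with SE bars) and all 6054 genes (grey). The members cluster around 0 on both axes, and Zfp592 stands apart at -1.13 in footprints with an SE of 0.88.

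RNA levels of the members showed no called change after leucine. Of 62 members 0 passed, and 0% of all genes did (edgeR quasi-likelihood test). At an unadjusted p under 0.05 there were 0 of 62 members in edgeR, beside 163 of all 6054 genes. DESeq2 had 1 member at that level and limma-voom 0. The median was 0.01, 35 members were positive, and the median SE was 0.093. The lowest p values in the upward direction belonged to Zfp943 (0.16 ± 0.08), Zfp84 (0.15 ± 0.08) and Zfp207 (0.13 ± 0.09). In the downward direction they belonged to Zfp592 (-0.41 ± 0.22), Zfp768 (-0.13 ± 0.08) and Zfp106 (-0.28 ± 0.24). Zfp106 RNA in leucine libraries ran from 694 through a median of 754 to 1377 CPM, inside the vehicle range.

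Translational efficiency compares the footprint change with that of RNA, and it was tested as the interaction of assay and treatment. Of 62 members 0 passed, and 0% of all genes did (edgeR quasi-likelihood test). At an unadjusted p under 0.05 there was 1 of 62 members in edgeR, beside 429 of all 6054 genes. DESeq2 had 2 members at that level and limma-voom 1. The median was -0.05 beside -0.02 for all genes, 20 of 62 were positive, and the median SE was 0.136. The lowest p belonged to Zfp639, with -0.24 ± 0.12 (adjusted p = 0.694, edgeR quasi-likelihood test). Zfp639 RNA was 40, 37, 43.5, 38 and 36.8 CPM in vehicle and had a median of 42.1 CPM in leucine, while its footprints were 20.1, 17.3, 19.9, 15.7 and 19.5 CPM in vehicle and had a median of 17 CPM in leucine. Both pairs of groups overlapped. Zfp869 (-0.19 ± 0.09) and Zfp260 (-0.24 ± 0.12) followed in that direction, and Zfp259, Zfp672 (0.10 ± 0.09) and Zfp51 (0.14 ± 0.15) in the other.

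Zfp260, a C2H2 factor studied in heart muscle, shows the size of such a difference in single libraries. Its footprints were 34.4, 30.6, 32.4, 33.5 and 26.5 CPM in vehicle and ran from 24.1 through a median of 26.4 to 33.5 CPM in leucine. Footprints in the 3 leucine libraries of set B were the lowest of all 11, and the change of -0.17 ± 0.10 did not pass (adjusted p = 0.545, edgeR). Its ratio to RNA was -0.31 ± 0.08 in vehicle and -0.56 ± 0.09 in leucine muscle. Per length these turned to 0.47 (adjusted p = 0.000194) and 0.22 (adjusted p = 0.0404, edgeR).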

How the data were processed

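RNA and ribosome footprints of mouse quadriceps were sequenced in 22 libraries. Per the labels' protocols, both assays used ribosomal RNA depletion and the same small RNA library kit. Per the submitters' processing notes, Bowtie, edgeR and mouse build mm9 were used, without versions. The authors deposited whole-number counts per gene, and every column was used. They also deposited edgeR tables, whose log2 fold changes, p-values and FDR are used only where the text names them.

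The fits used edgeR 4.0.16 (R 4.3.3, TMM, filterByExpr, which removed 0 genes, and robust quasi-likelihood fits), with Benjamini-Hochberg adjustment over 6054 genes at 0.05. The leucine effect was fitted within the 11 RNA and within the 11 footprint libraries. All 22 libraries entered 1 model for the interaction. Footprints against RNA were fitted within each treatment on its own libraries, scaled without those of the other treatment. Libraries of the assays were unpaired in these fits. Scaling makes every value relative to the other genes, so a change in total footprints cannot be seen. DESeq2 1.42.0, limma-voom (limma 3.58.1), other scalings, a mean count of at least 500, each set alone, the set as covariate and leaving out each library were alternatives. Lengths, linkers and shared windows of 30 bases came from GENCODE M21 transcripts, read in Python 3.11.15, and 6018 genes had one. RNA levels per kilobase use the transcript length in the authors' deposited tables. The procedure was tested on simulated data. Named members are the 3 with the smallest p per direction in each leucine comparison, the 5 highest and 5 lowest ratios, the 5 highest levels per assay and all measured role-list members, while Zfp110, Zfp770, Zfp26, Zfp617, Zfp706, Zfp825, Zfp191, Zfp266 and Zfp871 were named after their values were seen. The members and lists were chosen with earlier results of these data known.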

Additional observations from a re-analysis of the deposited data

Results flagged for a closer look

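Among the 35 named members, 140 groups of libraries were checked for a value far from the rest of its group, and 9 were found, where chance gives about 1 in 20 groups. Leucine RNA library A3 was the extreme one in 4 genes: Zfp106 RNA was 1377 CPM there and at most 847 in the other leucine libraries, Zfp36l1 RNA was 29.98 CPM against at most 12.96, Zfp462 RNA was 27.05 CPM against at most 16.75, and Zfp622 RNA was 11.95 CPM against at least 20.18. Zfp592 footprints were extreme in vehicle library A2 at 483.8 CPM (next 63.31) and in leucine library A3 at 155.8 CPM (next 59.97). Zfp715 footprints were highest in vehicle library A1 at 17.5 CPM (next 12.82). Zfp317 footprints were lowest in leucine library A2 at 9.687 CPM (next 11.03). Zfp943 RNA was lowest in vehicle library B2 at 16.1 CPM (next 17.65).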

How the results depend on the processing

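No paired analysis was possible because the count columns carry no replicate numbers. The median footprint to RNA ratio of the members stayed negative under every alternative run. In vehicle muscle it was -0.81 with total counts, where the median of all genes moved to -0.10. Within set B it was -0.64 (3 higher, beside 33.3% of all genes). It was -0.52 per length and -0.56 per unshared window (10 higher in each, beside 42.4% and 43% of all genes). With the authors' transcript lengths it was -0.47 (12 higher, beside 42.3% of all genes). Among the 23 members with a mean count of at least 500 it was -1.01, with 2 higher and 19 lower. Of all genes in that setting, 38.7% were higher and 38% lower. In leucine muscle it was -1.04 with total counts (2 higher, all genes -0.25), -0.70 per length (10 higher) and -0.57 per unshared window (9 higher). Of all genes, 26.5%, 42.4% and 43% were higher in these settings. It was -0.63 with the authors' lengths (12 higher, beside 42.1% of all genes). At a mean count of at least 500 it was -1.18 (2 higher, 20 lower, beside 39.8% and 39.5% of all genes). Leaving out each library in turn gave 4 to 5 higher, 48 to 51 lower and medians of -0.74 to -0.67 in vehicle. Of all genes, 36.2% to 37.6% were higher and 36.3% to 37.3% lower there. In leucine it gave 3 to 4 higher, 48 to 50 lower and medians of -0.81 to -0.75. Of all genes, 36.8% to 39.8% were higher and 38.3% to 40.4% lower there. The 3 length settings were chosen after seeing the data.

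Length settings changed the sign of 13 to 15 ratios in vehicle and 12 to 14 in leucine muscle. Among members whose ratio the text discusses, these were in vehicle, per length, Zfp110 (-0.37), Zfp148 (0.0914), Zfp260 (0.47), Zfp346 (0.59), Zfp768 (-0.18) and Zfp830 (-0.37). Per unshared window they were Zfp110 (-0.43), Zfp148 (0.13), Zfp260 (0.47), Zfp330 (0.11), Zfp346 (0.55), Zfp768 (-0.24) and Zfp830 (-0.43). With the authors' lengths they were Zfp110 (-0.33), Zfp148 (0.0924), Zfp260 (0.43), Zfp346 (0.76) and Zfp768 (-0.18). In leucine they were, per length, Zfp143 (-0.46), Zfp148 (0.0381), Zfp260 (0.22), Zfp346 (0.50) and Zfp768 (-0.23), and per unshared window the same members at -0.52, 0.0774, 0.22, 0.46 and -0.30. With the authors' lengths they were Zfp148 (0.0391), Zfp259 (0.22), Zfp260 (0.18), Zfp346 (0.67), Zfp768 (-0.24) and Zfp830 (0.70). These lists are not complete, and other members that turned include Zfp191 (0.38), Zfp266 (0.25), Zfp706 (2.48) and Zfp871 (0.27) per length in vehicle. In leucine Zfp768 also gave -0.018 with total counts and -0.011 within set B, and the cause was not tested.

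For leucine, 0 members were called in RNA and efficiency under every alternative, but in DESeq2's efficiency test 53 of 62 had no adjusted p. In RNA, 0 of all genes were called under every alternative too. In efficiency this held for every alternative except DESeq2, which called 0.71% of all genes higher and 0.149% lower. Where 0 of all genes were called, a count of 0 says nothing of the members. In footprints DESeq2 called 1 higher, and counting Zfp238 as a member gave 1 lower. With total counts the footprint median was -0.16 (all genes -0.15) and the efficiency median -0.20 (all genes -0.17). Leaving out each library gave 0 member calls, with medians of -0.043 to -0.0023 in footprints, 0.0019 to 0.031 in RNA and -0.077 to -0.024 in efficiency. In 9 of the 11 footprint settings 0 of all genes were called, so their counts say nothing of the members. Counting error was not separated from the spread between libraries, and genes under 129 counts were not analysed here.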

Other observations

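The authors' deposited tables of edgeR results list further Zfp genes that are not among the 62. Their RNA results hold 187 such genes, which have a median log2 change of 0.0252, 98 of them positive, and 0 have an FDR under 0.05, with 4 at a p under 0.05. Their footprint results hold 148 such genes, which have a median of -0.06, 57 of them positive, and 0 have an FDR under 0.05, with 7 at a p under 0.05. The lowest FDR among them in footprints belongs to Zfp366, with 0.601 (p = 0.00171, FDR = 0.146) in the authors' deposited table. Of the 62 members, the authors' deposited tables list 54 in RNA and 56 in footprints, with 0 at an FDR under 0.05 in either.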
